A study of Mus musculus with 20 samples.

Results

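A set of 1514 chromatin regions was closed in mouse embryonic fibroblasts (MEFs), open in embryonic stem cells (ESCs), and open during reprogramming with NanogN70+Oct4 but at no time during reprogramming with Nanog+Oct4. The regions came from the peaks of 20 ATAC-seq libraries, which were merged into 335858 regions where they overlapped by at least 1 bp, and a region counted as open wherever a library had a peak inside it. The members were selected on these calls: no peak in the MEF library, a peak in at least 2 of the 3 ESC libraries, a peak in at least 3 of the 8 NanogN70 libraries and a peak in none of the 8 Nanog libraries. They were 1514 of the 55446 regions with a peak in 2 or 3 ESC libraries and none in MEFs (ESC-only regions), which is 2.73%. Since the presence of peaks chose them, their openness in these libraries is a description and has no test.

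The MEFs were OG2 cells, which carry an Oct4-GFP reporter, and the libraries came from untreated MEFs (1), ESCs (3) and MEFs transduced with retroviruses for Oct4 together with Nanog or with NanogN70 and collected on day 0, 1, 3, 5, 7, 8, 10 and 12 (1 library per day and path), where day 0 was the end of the infection. NanogN70, named NanogBiD in the study, carries, at the N-terminus of NANOG, the part of SS18 that binds BRG1, so that both paths share the reporter, the Oct4 virus and the culture in iCD3 medium and later in N2B27 medium with 2iL, and differ in the Nanog virus. For the 3 ESC samples the title and the source field disagree (the latter gives MEFs), and the title was used. A single library stood for each day, so a difference on a single day has no replicate check.

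NANOG and OCT4 (Pou5f1) are transcription factors of the pluripotency network, which bind enhancers of ESC genes together with SOX2, ESRRB and KLF factors. Most of these sites are wrapped in nucleosomes in fibroblasts, and the BAF complex, with SS18 as a subunit and BRG1 as its ATPase, moves nucleosomes and makes such DNA accessible. In ATAC-seq, the Tn5 transposase inserts adapters into accessible DNA, and a peak marks a site with many insertions.

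The sequences below are from members and show what lay at their summits. Each is 101 bases of the plus strand of GRCm38 (the sequence of mm10, from RefSeq), centred on the summit of the highest-scoring ESC peak, and capitals mark a searched motif that lies within 25 bp of that summit on either strand. The first 9 belong to the members named further on that held a motif. The last 5 were chosen after their values were seen, to show the OCT and the NANOG motif: they hold these motifs and have the highest ESC scores among the members that do.
Slc10a7, GATA, chr8:78625160-78625260: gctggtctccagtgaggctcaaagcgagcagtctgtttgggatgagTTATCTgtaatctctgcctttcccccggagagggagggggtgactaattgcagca
Adam23, ZIC and ETS, chr1:63458268-63458368: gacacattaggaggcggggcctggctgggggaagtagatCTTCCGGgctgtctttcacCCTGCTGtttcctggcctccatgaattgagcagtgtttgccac
Pkp4, ZIC, chr2:59231484-59231584: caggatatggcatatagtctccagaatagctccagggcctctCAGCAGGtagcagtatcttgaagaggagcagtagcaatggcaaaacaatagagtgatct
Rims1, SOX, chr1:22466724-22466824: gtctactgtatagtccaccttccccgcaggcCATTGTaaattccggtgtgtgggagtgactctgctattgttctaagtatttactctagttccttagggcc
Kdm2b, SOX, chr5:122962042-122962142: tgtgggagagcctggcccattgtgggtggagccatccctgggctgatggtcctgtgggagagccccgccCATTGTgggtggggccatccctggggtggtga
Nodal, KLF, chr10:61416155-61416255: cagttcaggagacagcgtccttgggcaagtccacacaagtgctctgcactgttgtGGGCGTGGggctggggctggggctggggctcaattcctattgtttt
Marveld2, KLF, chr13:100616943-100617043: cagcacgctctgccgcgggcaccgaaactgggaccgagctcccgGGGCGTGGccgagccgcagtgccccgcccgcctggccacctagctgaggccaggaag
Zfhx2, TFCP2L1, chr14:55086046-55086146: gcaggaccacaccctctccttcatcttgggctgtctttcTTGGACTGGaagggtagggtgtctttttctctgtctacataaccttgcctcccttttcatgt
Mmp16, ZIC and TEAD, chr4:17092221-17092321: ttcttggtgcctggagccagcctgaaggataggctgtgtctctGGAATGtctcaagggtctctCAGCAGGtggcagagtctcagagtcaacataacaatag
Rab3gap2, OCT and TEAD, chr1:185105091-185105191: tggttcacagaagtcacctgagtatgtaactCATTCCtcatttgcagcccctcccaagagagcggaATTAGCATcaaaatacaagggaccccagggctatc
Hs3st3b1, OCT, chr11:63533682-63533782: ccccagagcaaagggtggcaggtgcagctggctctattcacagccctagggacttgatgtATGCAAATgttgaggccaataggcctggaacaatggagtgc
Ryr2, OCT and STAT, chr13:12176956-12177056: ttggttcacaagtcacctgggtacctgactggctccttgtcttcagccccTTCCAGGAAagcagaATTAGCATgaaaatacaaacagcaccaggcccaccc
Uaca, NANOG, chr9:60787880-60787980: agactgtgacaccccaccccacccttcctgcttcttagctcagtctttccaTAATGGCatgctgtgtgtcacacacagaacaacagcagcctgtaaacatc
Vps41, NANOG, chr13:18842001-18842101: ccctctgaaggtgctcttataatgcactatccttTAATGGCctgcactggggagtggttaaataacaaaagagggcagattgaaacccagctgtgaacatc
The matches lay on both strands and at varied distances from the summit. The Kdm2b sequence holds another copy of its SOX motif farther from the summit, which was not counted.

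Sequencing depth is unknown, because the numbers of reads are not given, and peak numbers and pileups (tags at a summit, not scaled to depth) are the only guides to it. The libraries of the 2 paths had 44126 to 107038 peaks and had a peak in 66.3% to 85.3% of the 31355 regions that MEFs shared with each of the 3 ESC libraries, on average 76.9% with NanogN70 and 74.3% with Nanog. Single days differed more. NanogN70 was higher on day 0 (77.7% against 66.6%), day 3 (78.8% against 71.4%) and day 12 (77.6% against 71.9%), and by less on days 5, 7 and 10. Nanog was higher on day 1 (68.5% against 66.3%) and day 8 (83.2% against 77.2%). All 12 fibroblast markers had a peak within 2 kb of a start site in MEFs, where 6 of 12 ESC markers had one too. In the ESC libraries 12, 11 and 12 of the 12 ESC markers and 9, 9 and 8 of the 12 fibroblast markers had a peak, so that peaks at start sites separate the cell types only in part. The NanogN70 library of day 3 stood apart: 9 of 10 leukocyte markers had a peak there against 2 or 3 in the other 15 libraries of the paths, 3 in MEFs and 3, 6 and 3 in the ESC libraries, and its median pileup at the 14217 regions open in all libraries was 60 against 16 to 41. Of the members, 513 had a peak in that library and 218 had a peak in only 2 other NanogN70 libraries. Its part in the results was not tested beyond leaving it out, which left 1296 members, and the main counts and shares are given with and without it.

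The same rule with the paths exchanged (at least 3 Nanog libraries and no NanogN70 library) was met by 143 regions, 0.258% of the ESC-only regions, so that the members outnumbered them 10.6 to 1. Whatever the other path did, 6387 ESC-only regions had a peak in 3 or more NanogN70 libraries and 3304 in 3 or more Nanog libraries, a much smaller imbalance. With the day 3 library of NanogN70 left out the numbers were 1296 and 179, a ratio of 7.24. In comparison, 2565 ESC-only regions had a peak in 3 or more libraries of each path (here called opened in both paths), and 36647 had no peak in any of the 16 libraries (never opened). The members were therefore fewer than the regions that both factor pairs opened.

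Near the thresholds the members were weak sites. More than any other class, 799 members (52.8%) were open in exactly 3 NanogN70 libraries, where the median score of their peaks (−10 times the base-10 logarithm of the MACS p-value, at least 50 in all files) was 78.9 and the median pileup was 7 tags. Just outside, 1756 regions were open in 2 NanogN70 libraries and no Nanog library, with a median score of 72.2 and a median pileup of 7. Another 1308 regions had at least 3 NanogN70 libraries and a single Nanog library, in which the median score was 70.3 and the median pileup 6 tags. A region without a peak may therefore be open below the detection limit of a library. At the other end, 78 members were open in 6 NanogN70 libraries, 32 in 7 and 7 in all 8.

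The members opened in the middle of the time course. On day 0 a peak was present at 277 members (18.3%), on day 1 at 240 (15.9%) and on day 3 at 513 (33.9%). By day 5 the number was 859 (56.7%). The highest number was on day 7, with 1282 members (84.7%), and it was lower on day 8 (965, 63.7%), day 10 (666, 44.0%) and day 12 (933, 61.6%). At the regions opened in both paths, the same NanogN70 libraries had a peak at 40.2% of regions on day 0, 92.5% on day 7 and 69.2% on day 12, so that the members were less often open than these regions on each of the 8 days. The median pileup of open members was 6 to 10 tags per NanogN70 library, against 7 to 12 at the regions opened in both paths and 14 to 17 at the members in the ESC libraries. At the 31355 regions open in both cell types, the NanogN70 library of day 7 also had the highest share with a peak (85.3%). That share was nearly equal on day 0 (77.7%) and day 8 (77.2%), where 18.3% and 63.7% of the members were open.

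**Figure D1:**
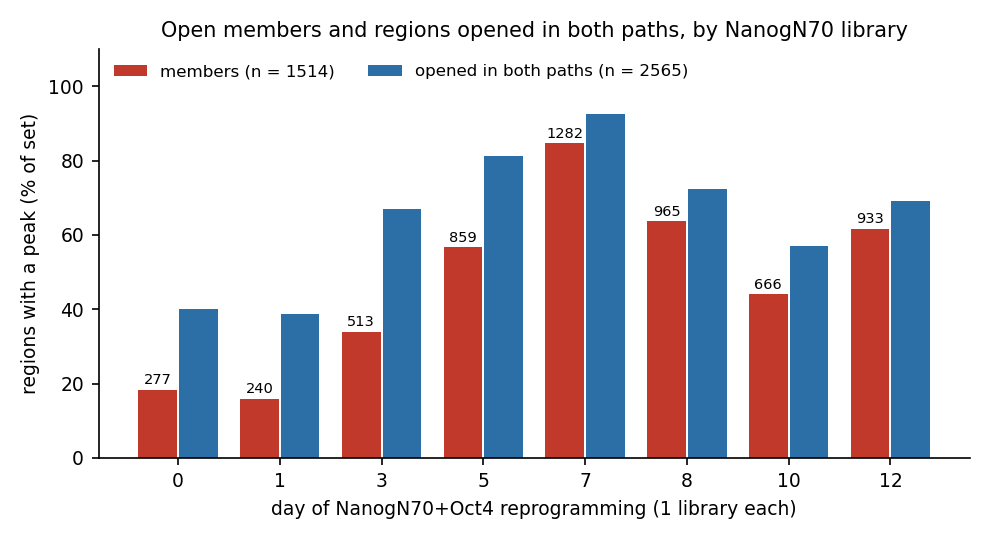
Share of regions with a peak (y axis, percent of the set) in each NanogN70+Oct4 library (x axis, day, 1 library each) for the 1514 members (red, number of open members above the bar) and the 2565 regions opened in both paths (blue). Both sets are highest on day 7 (84.7% and 92.5%), and the members are lower than the other set on every day.

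The first peak of a member came on day 0 for 277 members, day 1 for 101, day 3 for 327, day 5 for 405, day 7 for 353 and day 8 for 51. Openness was often interrupted: 642 members (42.4%) had no gap between their first and last open day, and 464 (30.6%) had a peak on neither day 10 nor day 12. Among the 378 members first open on day 0 or 1, 137 (36.2%) had a peak on day 12 and 74 (19.6%) had no gap. Among the 732 first open on day 3 or 5, 422 (57.7%) had a peak on day 12. Members first open on day 7 or 8 had a peak on day 12 in 374 of 404 cases (92.6%), a share that the rule raises because at least 3 of the last libraries had to be open. The most common set of open days was 5, 7 and 8, shared by 142 members, followed by 7, 8, 10 and 12 with 123 and 7, 10 and 12 with 108. A run of peaks without a gap from the first peak to day 12 was seen at 297 members (19.6%). Without the day 3 library, 330 of 1296 members were first open on day 0 or 1, 520 on day 5 and 446 on day 7 or 8. Of these, 132, 298 (57.3%) and 413 (92.6%) had a peak on day 12. Gaps were then fewer. In all, 666 members (51.4%) had none, as did 132 of the 330 first open on day 0 or 1. A run to day 12 was seen at 320 (24.7%).

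In ESCs the members were prominent sites. Of the members, 1250 (82.6%) were open in all 3 ESC libraries, as were 82.3% of the regions opened in both paths and 60.1% of the never opened regions. The median of the mean ESC score (a library without a peak counted as 0) was 211 in the members, with an interquartile range of 95.7 to 436, against 158 in the regions opened in both paths and 87.2 in the never opened regions. The median width was 474.5 bp, 543 bp and 250 bp in this order. The mirror set of 143 regions had a median ESC score of 103 and a median width of 333 bp. Score and width are part of the same ESC peaks that the rule used, so no test is given.

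The 12 members open in most NanogN70 libraries lay mainly in introns. The member in Setd1b, which encodes a histone H3 lysine 4 methyltransferase, had a pileup of 28, 32 and 27 tags in the ESC libraries and of 8, 6, 15, 22, 33, 21, 12 and 14 tags on days 0 to 12 with NanogN70 (chr5:123157575-123158488, an intron that also overlaps the lincRNA Gm26745). On day 7 its pileup was as high as in ESCs, and it was lower on the later days, though pileups are not scaled to depth. The member in an intron of Dip2b (chr15:100040926-100042336, 3.07 kb from a start site) had 25, 32 and 20 tags in ESCs and 17, 13, 42, 29, 37, 22, 10 and 13 tags with NanogN70, of which the 42 tags are from the day 3 library. At Adam11, which encodes a transmembrane protein of the ADAM family, the member lay 1.89 kb from a start site (chr11:102762947-102763573) and had 5 tags on day 0, 37 on day 7 and 15 on day 12, and 19, 20 and 16 tags in ESCs. Of the 7 members open on all 8 days, 6 had more tags on some NanogN70 day than in any ESC library, these 3 included.

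The other 4 members open on all 8 days had at most 23 tags with NanogN70. In an intron of Slc10a7, of a solute carrier family, they were 12, 5, 9, 11, 21, 10, 9 and 13 tags with NanogN70 and 16, 18 and 15 tags in ESCs (chr8:78624820-78625476). In an intron of Kdm2b, which encodes a histone demethylase that binds CpG islands, they were 11, 13, 9, 13, 23, 9, 4 and 14 tags, and 11, 21 and 15 tags in ESCs (chr5:122961609-122962261). In an intron of Tjp3, the gene of the tight junction protein ZO-3, they were 5 to 17 tags with NanogN70 and 12, 20 and 12 tags in ESCs (chr10:81279512-81279862). The member in Adam23, another ADAM gene, was the only one of the 7 that was highest on day 0, with 22 tags, and had 6 to 14 tags on the later days and 9, 16 and 11 tags in ESCs (chr1:63458027-63458505).

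The 5 strongest of the members open in 7 NanogN70 libraries were chosen by their ESC scores, and so have high pileups in ESCs. In an intron of Rell1 (chr5:63932592-63933396) the ESC libraries had 59, 71 and 49 tags and the open NanogN70 libraries 5 to 16 tags, with no peak on day 0. The members at Pkp4, the gene of a junctional armadillo protein, Sec11a, a subunit of the signal peptidase, and Rims1, a presynaptic scaffold protein, had 31 to 54 tags in ESCs and 4 to 14 tags with NanogN70. They had no peak on day 8, day 5 and day 3, respectively. The member in Ccdc191 (chr16:43926248-43927103, where Qtrt2 overlaps) had 31 to 40 tags in ESCs and 5 to 19 with NanogN70, and no peak on day 10.

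**Figure D2:**
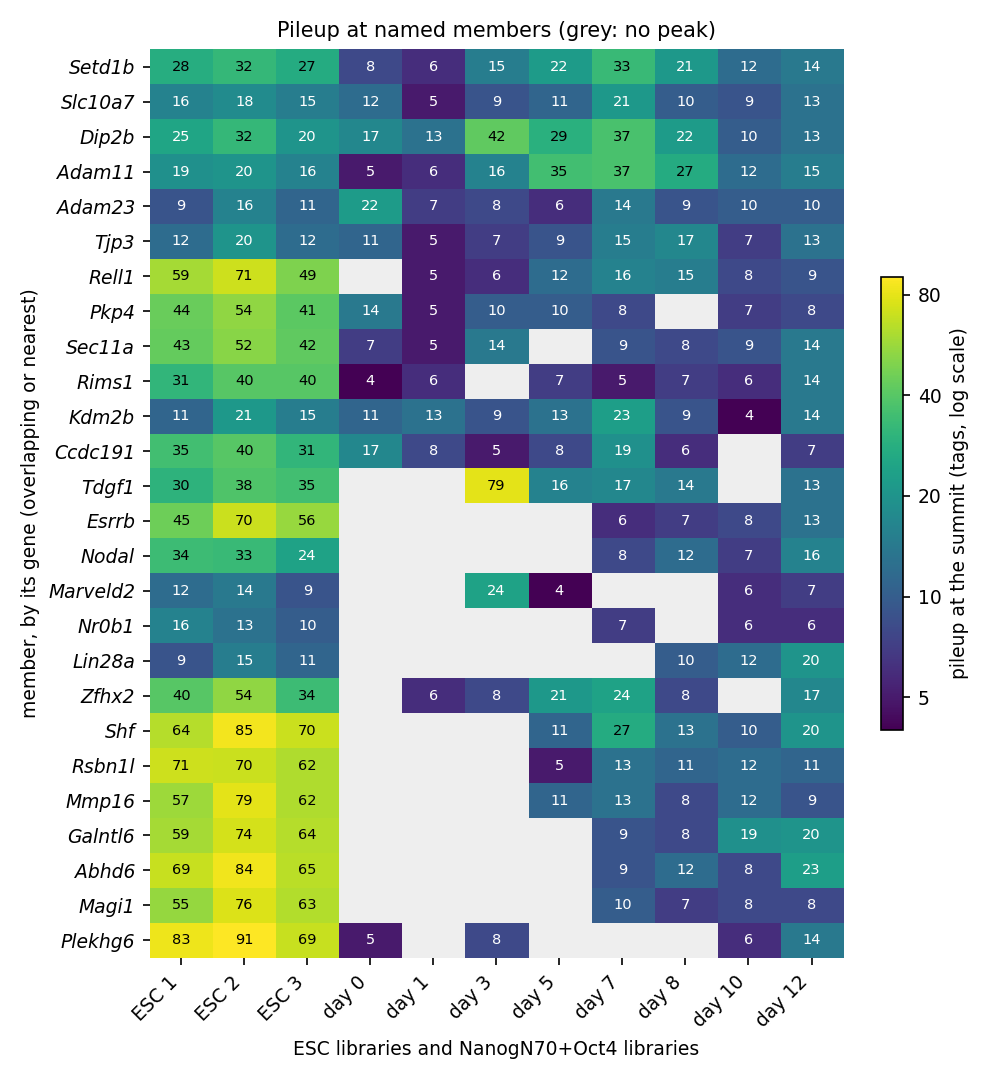
Pileup in tags at the summit (number and colour, log scale) of 26 named members (rows, by overlapping or nearest gene) in the 3 ESC and 8 NanogN70+Oct4 libraries (columns), with grey where there was no peak. The upper rows are open from day 0 or 1 at 4 to 42 tags, the rows from Tdgf1 to Lin28a start on day 3 or later, and the lower rows reach 34 to 91 tags in ESCs and at most 27 with NanogN70.

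A member lay within 2 kb of a start site of 6 of the 197 listed genes (3.05%), as for 153 of all 21911 protein-coding genes (0.698%). Several of the lists were chosen for a role in ESCs, and all with earlier results of these data known. The ESC-only regions at these start sites were not counted for comparison, so the 2 shares are a description only. At Tdgf1, which encodes the NODAL co-receptor Cripto, the member (chr9:110945991-110948371) had 79 tags on day 3, 16, 17 and 14 tags on days 5, 7 and 8 and 13 tags on day 12, and 30, 38 and 35 tags in ESCs. The value of day 3 comes from the library that stood apart, and the member remains without it. Another 2 regions within 2 kb of the start site, 1 of them also open in MEFs, were each open in 6 NanogN70 and 4 Nanog libraries. At Esrrb, a nuclear receptor of the naive pluripotency network, the member lay 0.034 kb from an internal start site, 109 kb from the first one (chr12:86469962-86470588), and was open on days 7, 8, 10 and 12 with 6, 7, 8 and 13 tags against 45, 70 and 56 tags in ESCs. Another start site of Esrrb had a region open in MEFs, in 7 NanogN70 and in all 8 Nanog libraries, and 1 more region next to the member had a peak in 3 ESC libraries, 1 NanogN70 library and no Nanog library.

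At Nodal, a ligand of the TGF-beta family, the member lay 1.77 kb upstream of the start site (chr10:61415245-61416917) and had 8, 12, 7 and 16 tags on days 7, 8, 10 and 12, against 34, 33 and 24 tags in ESCs. The region at the start site itself was open in MEFs, in 5 NanogN70 and in 2 Nanog libraries. At Nr0b1 (Dax1), a nuclear receptor gene on the X chromosome, the member (chrX:86191421-86192603) had 7, 6 and 6 tags on days 7, 10 and 12 and 16, 13 and 10 tags in ESCs. At Lin28a, whose product blocks the maturation of let-7 microRNAs, the member (chr4:134018423-134019124) had 10, 12 and 20 tags on days 8, 10 and 12 and 9, 15 and 11 tags in ESCs. These 3 late members were all open on day 12. At Marveld2, the gene of the tight junction protein tricellulin, the member (chr13:100616251-100617101) had 24, 4, 6 and 7 tags on days 3, 5, 10 and 12 and 12, 14 and 9 tags in ESCs. Its 24 tags are from the day 3 library that stood apart, and the other open days had 4 to 7 tags. No other region lay at its start sites.

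Members were also assigned to genes by distances that the study used, whether or not they lay at a start site. The distances were 5 kb upstream and 2 kb downstream of a start site, extended by up to 100 kb toward the next gene. The study also added genes whose promoter a region overlaps. Doing so brought in Esrrb (8 of 25 core factors, 32.0%) and no other listed gene, and 1679 genes in all (7.66%), while the counts that follow are for the domains alone. In all, 1668 of 21911 protein-coding genes (7.61%) had a member in this domain, or 1436 (6.55%) without the day 3 library. Of 25 core and naive pluripotency factors 7 had a member (28.0%), of 25 late pluripotency and ESC marker genes 9 (36.0%), of 27 genes of LIF, WNT, FGF and NODAL signalling 7 (25.9%) and of 17 SOX, POU and KLF genes 5 (29.4%). These counts were the same without the day 3 library. Of 28 epithelial genes 7 had a member and of 33 chromatin regulators 8, against 5 and 5 without that library, while 6 of 20 neural and lineage regulators and 3 of 24 fibroblast genes had one with and without it. The domains of the listed genes also held many ESC-only regions: 322 such regions lay in the domains of the 25 core factors, and members were 2.80% of them, against 2.85% over all genes. In the other lists the share ran from 3.57% (fibroblast genes) and 4% (signalling genes) through 4.89% (chromatin regulators), 5.04% (epithelial genes), 5.06% (late pluripotency genes) and 5.36% (SOX, POU and KLF genes) to 5.56% (neural and lineage regulators), so that other lists had shares as high as the pluripotency lists. The shares of genes in the lists are therefore descriptions of where ESC-only regions lie as well as of the members.

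Among the core factors, the member next to Nanog lay 44.65 kb upstream of its start site and 36.4 kb downstream of that of Dppa3, a maternal and germ cell factor (chr6:122662490-122663541), and was open on days 7, 8, 10 and 12. The member next to Sox2 lay 9.54 kb upstream, within the transcript Sox2ot (chr3:34640740-34640999), was open on days 1, 7, 10 and 12, and had 13 and 17 tags in ESC 1 and ESC 2 and no peak in ESC 3. Members lay 41.2 kb downstream of the start site of Klf5 and 50.3 kb downstream of that of Tbx3, both transcription factors of naive pluripotency, and in an intron of Tcf7l1, the WNT pathway repressor. Ncoa3, the gene of a nuclear receptor coactivator that acts with ESRRB, had 3 members, 1 of which rested on the day 3 library. Of these 9 members, 4 were first open on day 7 or 8 and the others between day 0 and day 5. The pair of members inside Esrrb is not among them, because domains were drawn around the first start site of a gene. Besides the one at the internal start site, a member lay in an intron of Esrrb (chr12:86501465-86502450, 31.6 kb from a start site), with 73, 83 and 67 tags in ESCs and 8, 9, 15 and 22 tags on days 7, 8, 10 and 12.

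Among signalling genes, Fgfr2 counts only through an annotated start site that makes the gene 2.96 Mb long. The member there also lies inside Ctbp2, the gene of a transcriptional corepressor, and had 66, 84 and 63 tags in ESCs and 8 to 17 tags on days 7, 8, 10 and 12 (chr7:133114409-133115549). The member 8.10 kb upstream of Lef1, which encodes a WNT effector, had 56, 59 and 38 tags in ESCs and 4 to 13 tags on days 5 to 12 (chr3:131101875-131102630). The member 6.89 kb upstream of Dppa5a, an RNA-binding ESC marker, was open on days 0, 5, 7 and 12 with 8 to 12 tags and had 30, 36 and 32 tags in ESCs (chr9:78374105-78375430). At Epcam, an epithelial adhesion gene that ESCs share, the member 28.4 kb downstream of the start site was open on days 5 to 12 (chr17:87664125-87664588). Members with 5 or 6 open days also lay near Otx2, Eomes and Dsp, which encode a homeobox factor of the epiblast and brain, a T-box factor and desmoplakin.

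Chromatin regulator genes with a member held remodeler and silencing factors. Smarcd1, a subunit of the BAF complex, had a member 23.5 kb upstream of its start site, within an intron of Asic1, with 45, 47 and 41 tags in ESCs and 9 to 28 tags on days 5, 7, 8, 10 and 12 (chr15:99678130-99678990). Dnmt3a, a DNA methyltransferase, had 2 members, 1 of which rested on the day 3 library, and Tet2, which oxidizes methylcytosine, had 1. The members at Arid1a and Arid1b, subunits of the BAF complex, and at Eed, a subunit of the Polycomb complex PRC2, were members only through the day 3 library, where the member near Arid1a had 77 tags. Of the fibroblast list, single members lay near Col3a1, Snai1 and Zeb2.

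The members were spread over the genome. They lay on all chromosomes except Y, with the most on chromosome 2 (132, 8.72% of members) and chromosome 11 (125, 8.26%), where 7.62% and 7.65% of all ESC-only regions lay. In 1322 cases no other member lay within 50 kb, 87 pairs were found, and 6 groups held 3 members. Of the 5 most compact groups, 4 lay at Map3k6 and Cd164l2 on chromosome 4, near Hes1, a repressor downstream of Notch, on chromosome 16, at Ccnd3, the gene of cyclin D3, on chromosome 17 and at Kdm2b on chromosome 5. Near Hes1 the 3 members (chr16:29982950-30039626) were the only ESC-only regions in the span. In the other 3 of these spans, 3 of 4 or 3 of 5 ESC-only regions were members, and none of the 4 spans held a region opened in both paths. At Ccnd3 and Hes1, a member of the group rested on the day 3 library.

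Members lay at promoters more often than never opened regions. Of the members, 136 (8.98%, 95% exact binomial interval 7.59 to 10.5%) had their ESC summit within 2 kb of a protein-coding start site, compared with 11.7% (10.5 to 13.0%) of the regions opened in both paths, 5.13% (4.90 to 5.36%) of the never opened regions, 9.79% (5.46 to 15.9%) of the mirror set and 6.48% of all ESC-only regions. Without the day 3 library the share was 8.49%. The intervals cover counting error only, since regions are not replicates, and no p is given. The interval of the members lay above that of the never opened regions and met that of the regions opened in both paths at its edge. A further 664 members (43.9%) lay in introns, 59 (3.90%) in exons and 655 (43.3%) between protein-coding genes, and the median distance to a start site was 24.3 kb in the members, 23.8 kb in the regions opened in both paths and 29.2 kb in the never opened regions. A region open in MEFs lay within 10 kb of 73.3% of the members, 73.6% of the regions opened in both paths and 62.6% of the never opened regions.

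At the summits, the OCT, NANOG, SP and ZIC motifs were more frequent in the members than in the never opened regions, and the ESRRB motif was more frequent than in the regions opened in both paths. These differences were not all found in each class of ESC score. The 51 bases around the summit were searched on both strands for 17 short consensus motifs, and a match is a description and not a bound site. The OCT motif (ATGCAAAT or ATGCTAAT, the octamer of POU factors) was in 45 members (2.97%, 2.18 to 3.96%), in 3.13% (2.49 to 3.88%) of the regions opened in both paths, in 1.31% (1.19 to 1.43%) of the never opened regions and in 1.06% of all regions of the series. The 3 OCT sequences printed above show the motif as ATGCAAAT and, on the other strand, as ATTAGCAT, at members with no peak before day 7. Those at Rab3gap2 and Ryr2 resemble each other over long stretches beside the motif, although neither motif window was counted as repeat-masked. The NANOG motif (GCCATTA) was in 0.991% of members (0.556 to 1.63%), 0.391% of the regions opened in both paths (0.188 to 0.718%) and 0.426% of the never opened regions (0.362 to 0.498%). Within the ESC score classes under 100, from 100 to 250 and from 250 it was in 1.02%, 1.07% and 0.920% of members and 0.445%, 0.409% and 0.369% of the never opened regions. These are 4, 5 and 6 members, and the intervals overlapped in each class.

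The ESRRB motif (AAGGTCA) was in 21 members (1.39%, 0.861 to 2.11%) and 1.53% (1.41 to 1.66%) of the never opened regions, but in 7 regions (0.274%, 0.110 to 0.563%) opened in both paths. The KLF motif (GGGTGTGG or GGGCGTGG), seen above at Nodal and Marveld2, was also lowest in the regions opened in both paths, with 3.43% (2.58 to 4.48%) of members, 3.43% of never opened regions and 1.96% (1.46 to 2.57%) of regions opened in both paths. In windows not mostly repeat-masked it was in 2.94% (2.11 to 3.98%) of members and 1.93% (1.42 to 2.57%) of regions opened in both paths. There the intervals overlapped. For KLF the order changed with the ESC score: at mean scores under 100 it was in 1.02% of members (0.277 to 2.58%), 1.95% of the regions opened in both paths and 3.22% (2.99 to 3.47%) of the never opened regions, and at 250 or more in 4.91%, 2.24% and 3.90%. The ZIC motif (CAGCAGG), seen above at Pkp4, Mmp16 and Adam23, was in 5.88% of members (4.75 to 7.18%) against 3.83% (3.12 to 4.65%) and 4.10% (3.90 to 4.31%). In the mirror set it was in 6.29% (2.92 to 11.6%). Against the never opened regions the ZIC shares were 7.36% and 3.74% at mean ESC scores under 100, 4.70% and 4.24% between 100 and 250 and 5.83% and 5.69% at 250 or more. The difference lay mainly in the lowest class. The SP motif (GGGGCGGGG) was in 1.39% of members, 1.06% of the regions opened in both paths, 2.10% (0.435 to 6.01%) of the mirror set and 0.529% (0.458 to 0.609%) of the never opened regions. By class of ESC score, the SP shares of members and never opened regions were 1.02% and 0.536% under 100, and 1.28% and 0.579% between 100 and 250, with overlapping intervals. At 250 or more they were 1.69% (0.845 to 3.00%) and 0.342% (0.182 to 0.585%). The SOX motif (CATTGT), seen above at Rims1 and Kdm2b, was in 67 members (4.43%, 3.45 to 5.59%), in 3.17% (2.52 to 3.92%) of the regions opened in both paths and in 3.46% (3.28 to 3.65%) of the never opened regions, and these intervals overlap. The combined OCT-SOX motif (TTGTNATGC), which can overlap the other 2, was in 6 members (0.396%), and the AP-1 motif of fibroblast enhancers (TGACTCA or TGAGTCA) in 15 (0.991%). The AP-1 share was 1.17% both in the regions opened in both paths and in the never opened regions, and 4.90% in all regions, which include those open in MEFs.

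**Figure D3:**
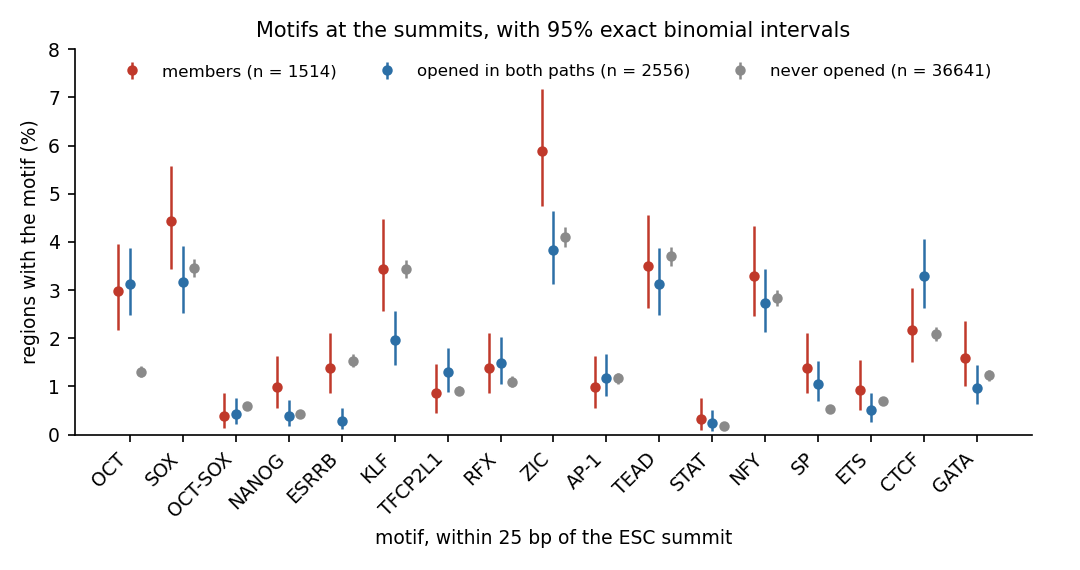
Share of regions (y axis, percent) with each of 17 motifs (x axis) within 25 bp of the ESC summit, in the 1514 members (red), 2556 regions opened in both paths (blue) and 36641 never opened regions (grey) that lie on the chromosomes, with 95% exact binomial intervals as bars. For OCT, members (2.97%) and regions opened in both paths (3.13%) lie above the never opened regions (1.31%), without regard to ESC score, and for ESRRB the regions opened in both paths lie lowest at 0.274%.

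The shares of the OCT and ESRRB motifs were also taken within classes of ESC score, which was higher in the members. At mean ESC scores under 100, the OCT motif was in 3.05% of 394 members (1.58 to 5.26%) and 1.12% of 21100 never opened regions (0.981 to 1.27%). Between 100 and 250 it was in 2.56% and 1.42%, and at 250 or more in 3.22% of members, where the interval of the never opened regions was 1.58 to 2.50%. In both of these classes the intervals of members and never opened regions overlapped. In the regions opened in both paths the OCT shares of the 3 classes were 1.82%, 2.65% and 4.97%, so that the members were higher in the lowest class and lower in the highest, with overlapping intervals. The ESRRB motif was in 1.52%, 1.07% and 1.53% of the members in these classes. In the regions opened in both paths it was in 0.130%, 0.306% and 0.373%, with intervals that overlapped in each class. It was in 1.49%, 1.53% and 1.79% of the never opened regions, so that the order against these was not the same in each class. Repeats differed more between the sets: most of the 51 bases were repeat-masked at 10.0% of members, 6.77% of the regions opened in both paths and 27.5% of the never opened regions. None of the 45 OCT matches in members was at such a window, and among the other windows the motif was in 3.30% (2.42 to 4.40%) of members and 1.27% (1.14 to 1.41%) of the never opened regions. Mean GC content was alike, at 53.7%, 54.6% and 53.0%. Without the day 3 library the OCT, SOX, ESRRB and ZIC shares of the members were 3.09%, 4.40%, 1.39% and 5.79%. For NANOG, SP and KLF they were 1.08%, 1.31% and 3.24%.

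By first open day, the ESRRB motif was in 1 of 378 members first open on day 0 or 1 (0.265%, 0.00670 to 1.47%), in 12 of 732 first open on day 3 or 5 (1.64%) and in 8 of 404 first open on day 7 or 8 (1.98%, 0.859 to 3.86%). The OCT motif was in 1.85% (0.748 to 3.78%), 3.42% (2.22 to 5.00%) and 3.22% (1.72 to 5.44%) of these classes. The CTCF motif (AGGGGGC) had the opposite order, with 3.97% (2.24 to 6.46%), 1.64% and 1.49%. The intervals of the first and last class overlapped for all 3 motifs, so the order of the classes is not resolved at these numbers. Without the day 3 library the ESRRB shares were 0.303%, 1.15% (first open on day 5) and 2.47%, again with overlapping intervals.

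**Figure D4:**
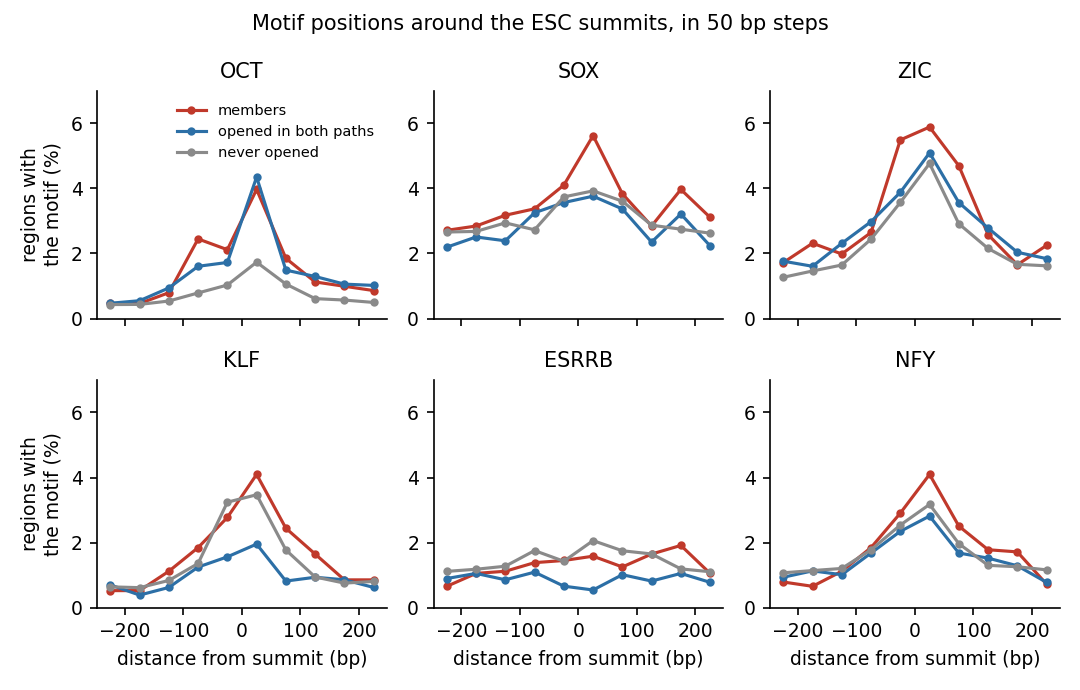
Share of regions (y axis, percent) with a motif in steps of 50 bp (x axis, distance from the ESC summit in bp) for members (red), regions opened in both paths (blue) and never opened regions (grey). OCT, ZIC, KLF and NFY matches of the members are highest in the 50 bp after the summit (3.96%, 5.88%, 4.10% and 4.10%), while ESRRB matches have no central peak in the members and are lowest after the summit (0.548%) in the regions opened in both paths.

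Regions beside the members were not themselves used by the rule, but they were called in the same libraries that chose the members. Some lay directly next to a member, as at Esrrb and Lin28a, and may be parts of the same site. The selection can therefore carry over to them. The tests that follow are thus no independent comparison of the paths. For each library, the share of other ESC-only regions with a peak was taken within 10 kb of a member (1363 regions) and more than 100 kb from every member (43095 regions). Near members the NanogN70 libraries had 4.33%, 16.5% and 17.1% on days 0, 7 and 12, and the Nanog libraries had 1.47%, 9.98% and 8.44%. Averaged over 8 days it was 10.5% for NanogN70 and 6.17% for Nanog. The difference was 4.31 percentage points (SD 3.35, n = 8 days), and NanogN70 was higher on 8 of 8 days (two-sided exact permutation test over all sign flips of the daily differences, p = 0.00781, the smallest it can give, Benjamini-Hochberg adjusted p = 0.0156). Far from members the means were 8.17% and 5.17%, a difference of 3.00 points, so that most of the difference near members was also found far from them. The excess near members over far regions was 1.31 points larger with NanogN70 (SD 0.988, n = 8 days), on 7 of 8 days (exact permutation p = 0.0156, adjusted p = 0.0156). With day 3 left out of both paths it was 1.23 points (exact permutation p = 0.0156). It did not pass when every library was reduced to its 44126 highest-scoring peaks (1.34 points, 6 of 8 days, exact permutation p = 0.234) or when all regions served as neighbours (1.25 points, 6 of 8 days, exact permutation p = 0.188). Each path was followed in 1 time course, so the days are no biological replicates.

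**Figure D5:**
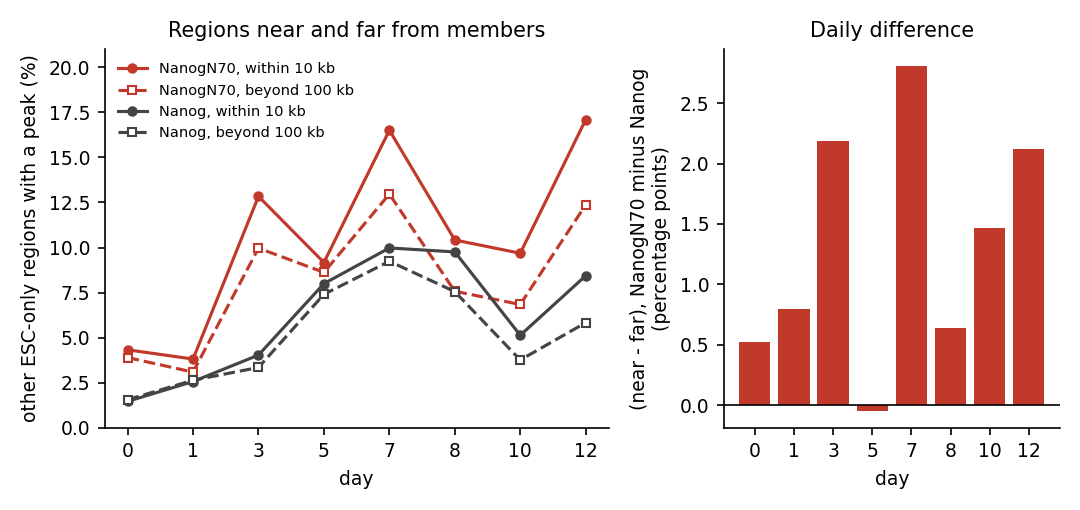
Left, share of other ESC-only regions with a peak (y axis, percent) by day (x axis) within 10 kb of a member (filled circles) and beyond 100 kb (open squares), for NanogN70 (red) and Nanog (dark grey) libraries. Right, daily difference between the paths in the near minus far share (y axis, percentage points), which is above 0 on 7 of 8 days and highest on day 7 (2.80 points).

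The members with the highest ESC scores of each first-day class were chosen by their ESC peaks, so that high ESC pileups follow from the choice. First open on day 7 or 8, the members 63.6 kb from a start site of Galntl6 (chr8:57732685-57733300), in Abhd6 (chr14:8054070-8055174) and 284 kb from a start site of Magi1 (chr6:93629530-93630234) had 55 to 84 tags in ESCs. With NanogN70 they had 9, 8, 19 and 20 tags, 9, 12, 8 and 23 tags, and 10, 7, 8 and 8 tags on days 7, 8, 10 and 12. First open on day 5, the members 1.44 kb from a start site of Shf, 17.7 kb from one of Rsbn1l and 761 kb from one of Mmp16, the nearest gene, had 57 to 85 tags in ESCs and 5 to 27 tags with NanogN70. Among the early ones, the member 53.0 kb from a start site of Plekhg6 (chr6:125433058-125434211) had 83, 91 and 69 tags in ESCs and only 5, 8, 6 and 14 tags on days 0, 3, 10 and 12. The member in Zfhx2, a homeobox gene, had 34 to 54 tags in ESCs and 6 to 24 tags on 6 days. All 9 strongest members, that in Ccdc191 included, had fewer tags on each NanogN70 day than in any ESC library, with depth not scaled.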

How the data were processed

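ATAC-seq was done in 20 samples: MEFs, ESCs and MEFs reprogrammed with Nanog+Oct4 or NanogN70+Oct4. The authors trimmed reads with Trim Galore 0.6.4, aligned them to mm10 with Bowtie2 2.4.5, removed repetitive, mitochondrial and low-quality (mapq under 30) reads with SAMtools 1.16.1 and called peaks in each library with MACS 1.4.2 (duplicates kept, no shift model). No input control is named. The authors deposited for each peak a score, -10 times the base-10 logarithm of its p-value, and for each summit the signal, its coverage in tags (pileup), which is not scaled to depth. Depth is unknown, since the sources used here give no read numbers, and deeper libraries can yield peaks at weaker sites.

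Here, peaks were merged and regions selected as described in the report. The members and the gene lists were chosen with earlier results of these data known. Groups were taken from the sample titles. Peak positions were set on GRCm38 (GENCODE M21 start sites), in which the peaks of all 21 chromosomes lay inside the reference. Another 14 sequence names were left out of annotation and motifs. Shares have 95% exact (Clopper-Pearson) intervals, and the 2 tests near members were adjusted together. The members named were the 12 open in most NanogN70 libraries (ties by ESC score), those within 2 kb of a start site of a listed gene, the 5 largest groups within 50 kb (6 tied, of which the 5 shortest were taken and 1 is not reported here), and the 3 with the highest ESC score per class of first open day (none was first open on day 10). Classes of ESC score and repeat content, and the run without the NanogN70 day 3 library, were added after the data were seen. Alternatives changed the peak threshold, the peak number, the rule, the days, the ESC replicates and the windows. Scripts were tested on simulated peaks. Computing used Python 3.11.15, scipy 1.17.1 and pysam 0.24.0.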

Additional observations from a re-analysis of the deposited data

How the results depend on the processing

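Of 126 recomputed values, 103 stayed within the limits set (a factor of 1.5 for counts, the 95% interval for shares, the side of 0.05 for the test). Only the excess near members could change direction, and it was above 0 in all 23 of its alternatives. The promoter, SOX and OCT shares of the other sets were not recomputed, so the comparisons between sets were not checked here. The number of members was 873 with peak scores of at least 100, 986 with 44126 peaks per library, 3270 with at least 2 NanogN70 libraries, 715 with at least 4 and 2822 with up to 1 Nanog library. Under the same settings the mirror set had 56, 85, 455, 54 and 387 regions, and it had 95 with all 3 ESC libraries and 83 without day 8. Members outnumbered it 7.19 to 15.6 times over all settings. Leaving out each ESC replicate gave 1290 to 1387 members. The promoter share was 12.3% at scores of at least 100, 11.5% at equal peak numbers, and 5.61% and 16.2% with windows of 1 and 5 kb. The SOX share was 5.73% with at least 4 NanogN70 libraries, and windows of 50 and 100 bp gave SOX shares of 9.11% and 15.0% and OCT shares of 5.55% and 9.64%, as longer windows must. The excess near members was no longer past the threshold at equal peak numbers (1.34 points, exact permutation p = 0.234) and with all regions as neighbours (1.25 points, exact permutation p = 0.188), and its p was 0.00781 to 0.0391 otherwise (exact permutation). For the changes other than window sizes the cause was not tested. The paths were paired by day in this test, and no replicate numbers were shared beyond that. Unknown depth limits all calls of closed regions.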

Other observations

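The members near the epithelial genes that did not rest on the NanogN70 day 3 library lay at Epcam, Tjp3, Dsp, Marveld2 and Marveld3. Marveld3, a tight junction gene, had its member in an intron 4.84 kb downstream of the start site (chr8:109957151-109957964), open on days 3, 5, 7, 10 and 12 with 7 to 20 tags and with 18, 21 and 18 tags in ESCs. The member 18.04 kb upstream of Dsp (chr13:38133000-38133644) was open on days 3 to 12 with 5 to 14 tags and had 7, 9 and 6 tags in ESCs. Among lineage regulators, Tfap2c had 2 members, of which the farther one (74.4 kb upstream, chr2:172474988-172475330) was open on the first 6 days alone and the nearer one (32.9 kb upstream, chr2:172516287-172517166) on days 7, 8, 10 and 12. The genes with 3 members in their domain numbered 13, but 5 without the NanogN70 day 3 library, which were Map3k6, Kdm2b, Gpc6, Ntpcr and Plekhf2 (named after their counts were seen).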
